A study of Mus musculus with 10 samples.

Results

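The MSC effect in neutrophils of the infarcted heart was examined by comparing 3 cardiac MI + MSC libraries, numbered 15, 17 and 18, with 3 cardiac MI libraries, numbered 13, 19 and 20, out of 10 libraries in the series. The 6 libraries were chosen by their labels, and the comparison ran across 11549 genes of the 28185 in the table. All mice were male and of strain C57Bl/6J, and all had a myocardial infarction (MI) made by tying off the left coronary artery, so that the controls carried the injury too. The MI + MSC mice also received syngeneic mesenchymal stromal cells (MSC), grown from bone marrow and injected under the skin away from the heart shortly after the ligation, and the MI mice received none. At day 3 the left ventricle below the ligature was digested with enzymes, cells were captured with anti-Ly6G microbeads on a magnetic column, and their ribosome-depleted RNA was sequenced. The other 4 libraries, Blood 21 and 22 and Blood + MSC 23 and 24, came from blood of infarcted mice without and with MSC. Single animals were the experimental unit of the study, and the labels name no animal for a library. The labels give no batch apart from the group code, so batch and treatment cannot be told apart.

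Neutrophils are the first leukocytes to enter an infarct. They carry receptors for products of damaged tissue, and engagement of these receptors releases the transcription factor NF-kB from its inhibitors, which drives cytokine, chemokine and survival genes together with the genes of its own inhibitors. MSC are connective tissue progenitors that act on immune cells largely through secreted factors. A magnetic Ly6G selection enriches neutrophils, and cells of the digested muscle (endothelium, pericytes, cardiomyocytes, macrophages) can pass with them.

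The deposited values are counts divided by a size factor for each library, called normalized counts below, and dividing each value by what 1 read was worth in its library gave whole reads for all of them. The cardiac libraries held 148594 reads in MI 13, 1433926 in MI 19 and 2653258 in MI 20, against 2229855, 665946 and 1979944 in MI + MSC 15, 17 and 18. MI 13 stood apart. In it 1 read was worth 8.40 normalized counts, against 0.515 to 2.30 in the other cardiac libraries, and 3136 of the 11549 tested genes had 3 reads or fewer there, against 22 to 429 in the others. Across the tested genes, log2 values of MI 13 correlated with those of the other cardiac libraries at 0.60 to 0.73, and the others with each other at 0.89 to 0.97 (Pearson, over genes, which are not independent). The main counts, the list medians and the DESeq2 calls below are therefore given with and without MI 13, which leaves 2 MI libraries.

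The labelled cell type was checked against its markers. Ly6g, the gene of the surface protein used for the capture, had normalized counts of 16.8, 26.9 and 18.01 in MI against 6.76, 13.8 and 4.75 in MI + MSC, while Blood held 198 and 645 and Blood + MSC 57 and 41.2. Summed over 22 neutrophil markers, the level was 4319.9, 12252 and 10209 in MI 13, 19 and 20 and 14524, 22502 and 5922 in MI + MSC 15, 17 and 18, against 24512 to 67809 in the blood libraries. The order of the cardiac libraries in this sum did not follow the treatment, and all of them lay below the blood libraries. S100a8, which encodes a calprotectin subunit that fills the neutrophil cytosol, stood at 605, 1948 and 1137 in MI against 1479.6, 3122 and 616 in MI + MSC. Cardiomyocyte markers were high in the same libraries, with sums of 31449, 30949 and 11298 in MI against 4659, 7315 and 16879 in MI + MSC and 221 to 272 in blood. The monocyte and macrophage marker sum was above the neutrophil marker sum in every cardiac library except MI + MSC 17. It ran from 8026 (MI 13) to 30272 (MI + MSC 18), while the blood libraries held 10442.5 to 15130. Apart from MI 13, each cardiac library lay above all blood libraries in this sum. Sums of different lists also depend on the genes listed. The cardiac libraries thus held marker RNA of heart muscle cells, monocytes and macrophages beside that of neutrophils. In such bulk RNA fewer cells of a type and less RNA per cell cannot be told apart.

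No gene passed the limma test across all libraries, where a call required a Benjamini-Hochberg adjusted p under 0.05 and a log2 fold change of at least 0.5 (0 higher and 0 lower of 11549, 0.0% each way). The lowest adjusted p in limma was 0.340. At an unadjusted p under 0.05 limma gave 377 genes higher in MI + MSC (3.26%) and 548 lower (4.74%). Without MI 13 the lowest adjusted p was 0.706, and the unadjusted counts were 120 higher (1.1%) and 325 lower (2.97%) of 10951. edgeR's quasi-likelihood test on the recovered reads gave 0 calls either way, with 968 genes at an unadjusted p under 0.05 and a lowest adjusted p of 0.0535. DESeq2, the tool the study used, made calls on the same reads. With all libraries it called 21 genes higher in MI + MSC (0.182%) and 58 lower (0.502%), and without MI 13 it called 5 higher (0.0457%) and 37 lower (0.338%). Its filter on low counts left 9532 genes with an adjusted p, and p-values adjusted over every gene, a setting added after seeing the data, gave 20 higher and 52 lower. Limma with a quality weight for each library (0.167 for MI 13, 7.15 for MI 19) called 325 higher and 776 lower, so the number of calls depended on how the spread between libraries was modelled.

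MI 13 bore on the calls in both directions. Of the 21 higher genes 5 were called in both DESeq2 fits, and of the 58 lower genes 32 were. All 21 and all 58 kept their direction without MI 13. For all 21 higher and 57 of the 58 lower genes this was all but fixed in advance, since their treated and untreated libraries did not overlap. MI 13 was the lowest of the MI libraries for 19 of the 21 higher genes and for 21 of the 58 lower genes, and its reads for the higher genes ran from 1 to 59 with a median of 11. The median limma log2 fold change of the 21 higher genes was 1.82 with MI 13 and 1.53 without it, and that of the 58 lower genes was -1.70 both ways. Over all genes tested in both fits, 8492 of 10889 (78.0%) had the same sign with and without MI 13.

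**Figure D1:**
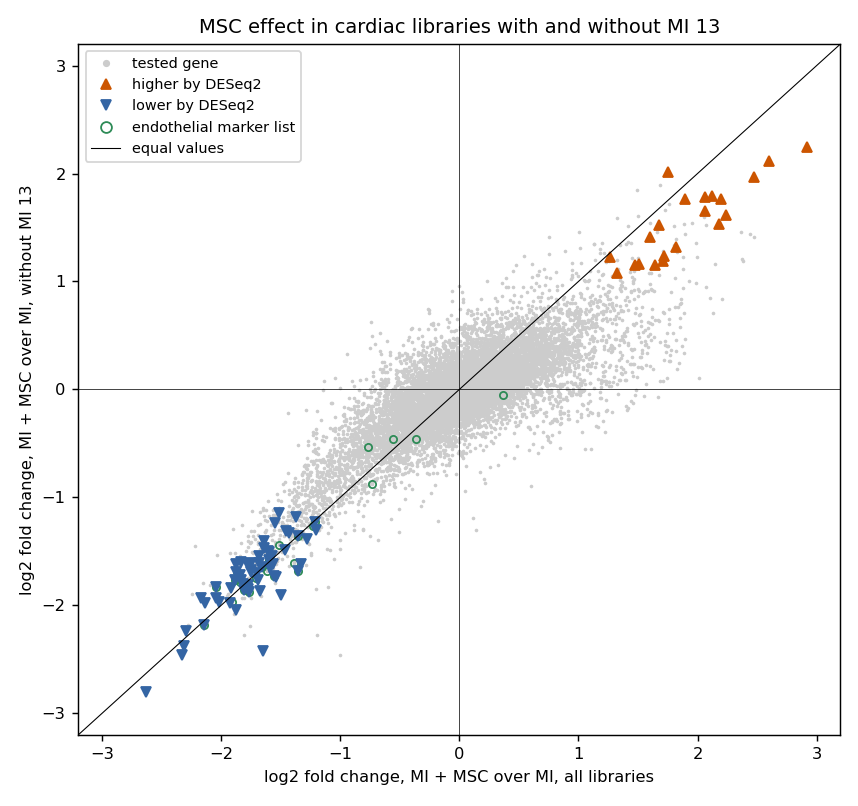
Log2 fold change of MI + MSC over MI from limma for each tested gene with all libraries (horizontal axis) and without MI 13 (vertical axis), with the 21 higher and 58 lower DESeq2 genes and the endothelial marker list marked. Of the 21 higher genes all but Gm37691 lie under the line of equal values. The lower genes lie on both sides of it, as with Lyve1 (-1.65 with MI 13 and -2.42 without it) and Syne2 (-1.51 and -1.14).

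Leaving out other libraries, which was added after seeing the data, moved the counts as well. DESeq2 called 1 gene higher and 3 lower without MI 19, 21 and 26 without MI 20, 2 and 6 without MI + MSC 15, 4 and 29 without MI + MSC 17, and 79 and 109 without MI + MSC 18. Among the 3 treated libraries, MI + MSC 18 was the lowest for 20 of the 21 higher genes, and MI + MSC 15 was the lowest for 52 of the 58 lower genes. Across the 6 fits with 1 cardiac library left out and the fit with every library, 1 higher gene (Il1a) and 2 lower genes (Nherf2 and Cxcl12) were called each time.

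**Figure D2:**
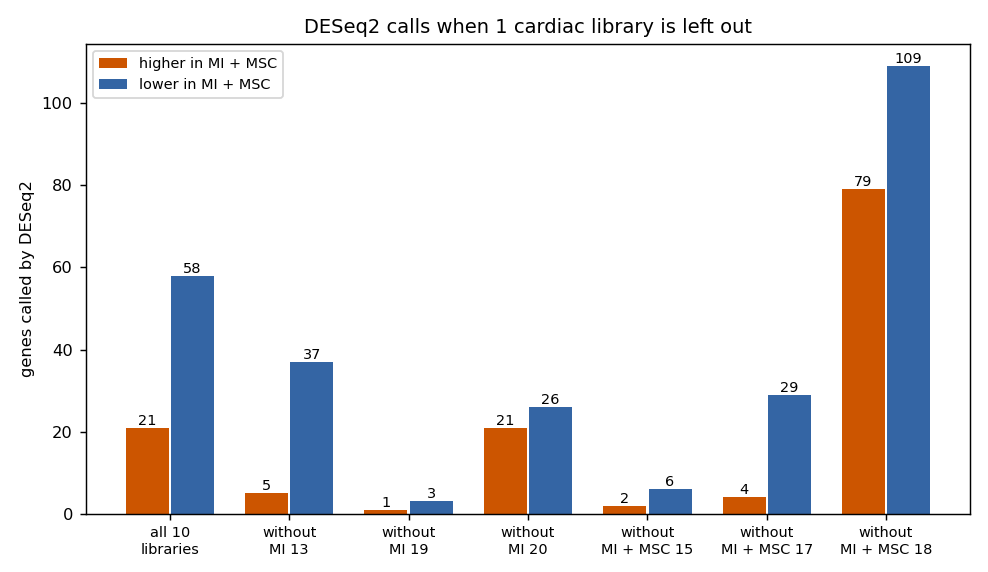
Number of genes called by DESeq2 as higher or lower in MI + MSC than in MI (vertical axis) with all 10 libraries and with each cardiac library left out in turn. The counts run from 1 higher and 3 lower without MI 19 to 79 higher and 109 lower without MI + MSC 18.

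A simpler view is whether the 3 treated libraries all lay on one side of the 3 untreated ones. This held for 814 genes above (7.05%) and 1109 below (9.6%), and with MI 13 set aside for 1159 above (10%) and 1641 below (14.2%). All 21 higher DESeq2 genes and 57 of the 58 lower ones were among them, the exception being Lyve1. These shares over all genes, and those of 3.26% higher and 4.74% lower at an unadjusted limma p under 0.05, are the background against which each list of genes below is read.

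Genes of secreted inflammatory mediators had the highest median of the 20 lists. The median log2 fold change over 24 tested cytokines and chemokines was 1.04 with MI 13 and 0.78 without it, beside -0.01 for all tested genes in both fits. Of the 24 genes 22 had a positive value (19 without MI 13), 10 were higher at an unadjusted limma p under 0.05 and 0 lower, and 7 (Il1a, Cxcl1, Tnf, Cxcl16, Cxcl2, Cxcl3 and Lif) had treated libraries that all lay above the untreated ones. The summed level of the list was 5085, 11186 and 12544 in MI 13, 19 and 20, with 24076, 28494 and 12648 in MI + MSC 15, 17 and 18. The neutrophil marker sum, at 4319.9, 12252 and 10209 and then 14524, 22502 and 5922 in the same libraries, was likewise lowest in MI 13 and highest in MI + MSC 17 and 15, and the monocyte and macrophage marker sum, at 8026, 17996 and 18899.9 and then 28241, 17233 and 30272, was lowest in MI 13 and highest in MI + MSC 18 and 15. Over the group means these sums were 2.26-fold, 1.60-fold and 1.69-fold higher in MI + MSC with MI 13, and 1.83-fold, 1.27-fold and 1.37-fold without it. The innate receptor, NF-kB, immediate early, antioxidant and BCL2 family lists below shared the pattern of the neutrophil sum. Among the cardiac libraries their sums were lowest in MI 13 and highest in MI + MSC 15 and 17. The part of neutrophil and macrophage RNA in the levels of the cytokine list and these lists was not tested. Il1a encodes interleukin 1 alpha, an alarmin that triggers inflammation when cells die or are activated. Its level was 16.8, 64.4 and 84.4 normalized counts in MI 13, 19 and 20 and 445, 498 and 206 in MI + MSC 15, 17 and 18. The groups did not overlap, and Il1a had the lowest DESeq2 adjusted p of the higher genes. DESeq2 gave a log2 fold change of 2.61 ± 0.47 (SE, adjusted p = 0.000251, and 0.000695 without MI 13), and limma gave 2.92 ± 0.57 with MI 13 and 2.25 ± 0.46 without it. MI 13 held 2 Il1a reads.

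Cxcl1, a chemokine that draws neutrophils through the receptor CXCR2, stood at 16.8, 35.6 and 54.6 in MI against 243, 138 and 111 in MI + MSC. DESeq2 called it with MI 13 (log2 2.01 ± 0.48, adjusted p = 0.00906) and without it (adjusted p = 0.0249). Tnf, the gene of tumour necrosis factor, stood at 303, 473 and 620.2 in MI against 2880.2, 2707 and 843 in MI + MSC. For Tnf the treated libraries spread widely, MI + MSC 18 being close to MI 20, and the DESeq2 adjusted p was 0.0155 with MI 13 and 0.141 without it. Cxcl2, another CXCR2 ligand, stood at 698, 1437 and 2001 in MI against 5394, 7494 and 2181 in MI + MSC, and DESeq2 did not call it (adjusted p = 0.101, and 0.574 without MI 13). Il1b, the gene of interleukin 1 beta, stood at 1546, 2749 and 2951 in MI against 5497, 8793 and 2515 in MI + MSC. Its groups overlapped, MI + MSC 18 lying under MI 19 and MI 20. Ccl2, the main ligand that recruits monocytes, ran the other way without passing a test, at 261, 679.6 and 559 in MI against 459.6, 264 and 495 in MI + MSC.

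**Figure D3:**
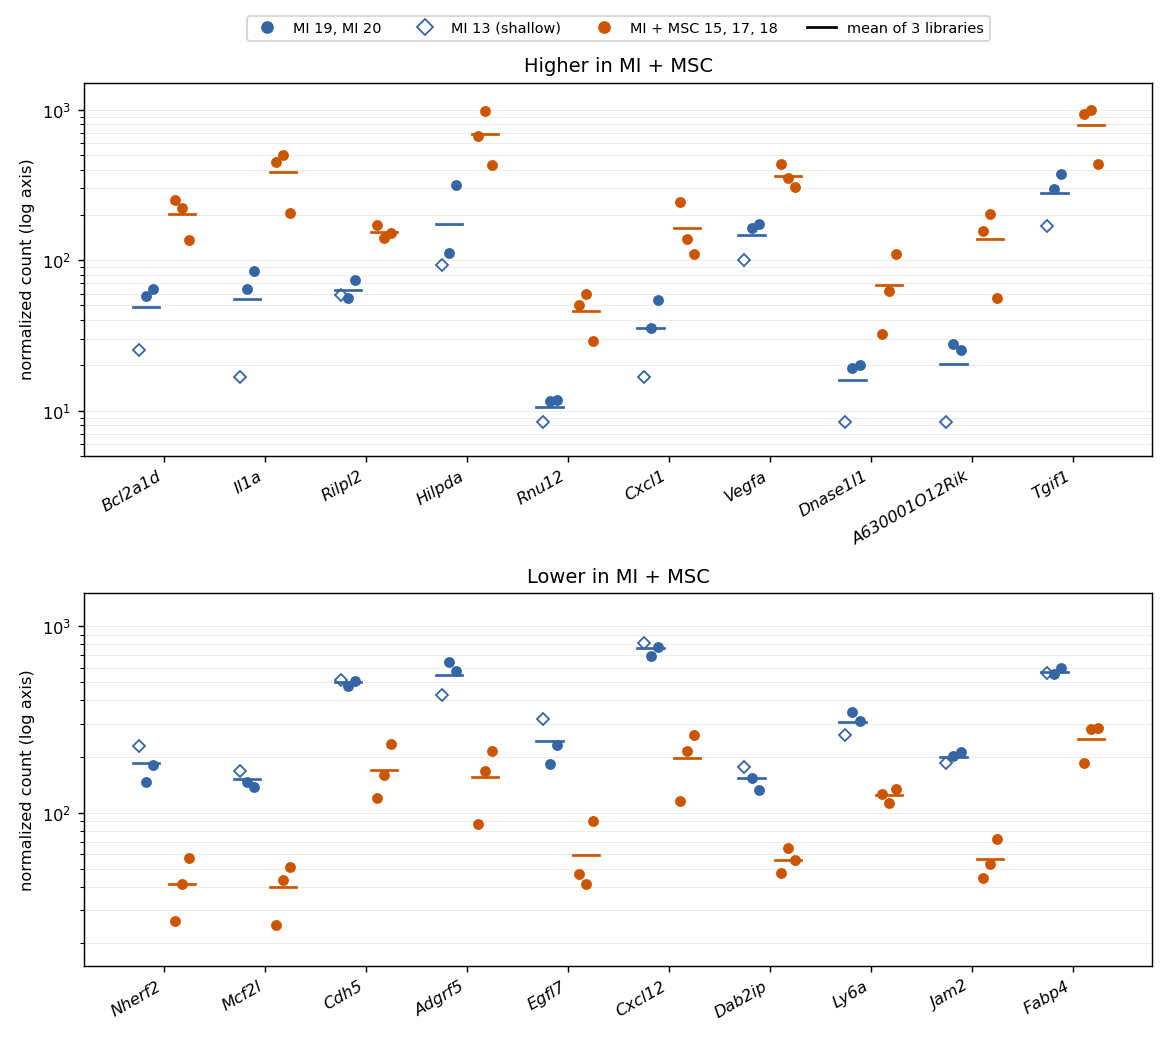
Normalized counts (log axis) in each cardiac library for the 10 higher and the 10 lower genes with the lowest unadjusted limma p among those that did not overlap, kept their sign with each library left out and had at least 10 reads in at least 3 cardiac libraries. Horizontal bars are means of 3 libraries, and the open diamond is MI 13. Every treated library lies above or below all untreated ones, since non-overlap was part of the choice.

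Most receptors and sensors of the same response had positive values, with members on both sides. The median over 26 tested innate receptors and inflammasome genes was 0.63 with MI 13 and 0.13 without it. Of the 26 genes 22 had a positive and 4 a negative value with MI 13, against 18 and 8 without it. With MI 13, 7 were higher and 1 lower at an unadjusted limma p under 0.05. Ccrl2, a chemerin receptor that is induced on activated neutrophils and does not signal, stood at 219, 606 and 647 in MI against 3042, 3986 and 1220.3 in MI + MSC, with a DESeq2 log2 fold change of 2.46 ± 0.57 (adjusted p = 0.00729, and 0.0834 without MI 13). Nlrp3, the sensor of the inflammasome that matures interleukin 1 beta, stood at 496, 626 and 865 in MI against 2329.9, 3189 and 1008 in MI + MSC (DESeq2 adjusted p = 0.0166, and 0.144 without MI 13). DESeq2 thus called both with MI 13 and neither without it. Clec4e, a receptor for dead cells and fungal glycolipid, overlapped between groups at 471, 1029 and 1147 in MI against 2699.7, 3804 and 1099.6 in MI + MSC. The Toll-like receptor genes Tlr2 and Tlr4 had limma values of 0.69 and 0.63 with MI 13 and -0.02 and -0.14 without it, so their direction turned. Nod1, a sensor of bacterial wall peptides, was lower in all 3 treated libraries, at 151, 120.2 and 133 in MI against 91.3, 78.1 and 90.8 in MI + MSC (limma unadjusted p = 0.0232, and 0.042 without MI 13).

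Among 19 NF-kB subunits and feedback inhibitors the median was 0.61 with MI 13 and 0.52 without it. Of these 6 did not overlap, all higher, and 5 were higher and 0 lower at an unadjusted p under 0.05. The summed level of the list was 2706, 4521 and 5597 in MI against 11599, 14333 and 5922 in MI + MSC. Like the neutrophil marker sum, it was lowest in MI 13 and highest in MI + MSC 17 and 15. Nfkbia encodes the inhibitor that holds NF-kB in the cytoplasm and is itself an NF-kB target. It stood at 496, 1259 and 1468 in MI against 3462, 4691 and 1714 in MI + MSC and rose by DESeq2 with all libraries (log2 1.59 ± 0.43, adjusted p = 0.0314), with an adjusted p of 0.222 without MI 13. Nfkbiz, a nuclear member of the same protein family that mostly acts as a coactivator of NF-kB target genes, stood at 336, 617 and 772 in MI against 1763, 2397 and 873 in MI + MSC (DESeq2 adjusted p = 0.0408, and 0.309 without MI 13). Nfkbid, another nuclear member of the family, stood at 151, 172 and 224 in MI against 599, 629 and 248 in MI + MSC and was not called (DESeq2 adjusted p = 0.0756, and 0.307 without MI 13). Tnfaip3, the deubiquitinase that ends the signal, reached 2962, 4117 and 1177 in MI + MSC 15, 17 and 18 against 319, 798 and 1257 in MI. Its groups overlapped, MI + MSC 18 lying under MI 20. The subunit genes Nfkb1 and Rela had limma values of -0.13 and 0.40 with MI 13 and -0.04 and 0.02 without it.

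The promoters of the DESeq2 genes were searched for the NF-kB consensus, 10 bases long, on both strands of the 250 bases before the transcript start (GRCm39). Of 17 coding higher genes 5 held a match (29.4%), of 58 lower genes 3 did (5.17%), and of 10637 coding genes tested 465 did (4.37%). The AP-1 motif TGANTCA was found in 1 of the 17 (5.88%), 1 of the 58 (1.72%) and 495 of the 10637 (4.65%). A match is a string of letters and no measure of binding, and the higher genes were picked by the fit that MI 13 weighs on. The 8 stretches of 80 bases that hold an NF-kB match are shown 5′ to 3′ on the strand of the gene, with the match in capitals, so that the higher and the lower genes can be compared. Cxcl1 has 2 overlapping matches, of which 1 is marked. Icam1, the leukocyte adhesion ligand, Kdr and Flt1, the genes of both main VEGF receptors, and Arhgef15, an endothelial guanine exchange factor, stand here because they hold a match.
Cxcl1 (higher, chr5:91038998-91039077, plus strand): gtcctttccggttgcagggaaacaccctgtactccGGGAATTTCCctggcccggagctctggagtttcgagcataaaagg
Nfkbia (higher, chr12:55539433-55539512, minus strand): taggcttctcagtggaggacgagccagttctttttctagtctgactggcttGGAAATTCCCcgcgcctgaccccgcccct
Icam1 (higher, chr9:20926422-20926501, plus strand): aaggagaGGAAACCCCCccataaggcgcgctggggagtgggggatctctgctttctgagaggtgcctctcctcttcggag
Cd69 (higher, chr6:129252508-129252587, minus strand): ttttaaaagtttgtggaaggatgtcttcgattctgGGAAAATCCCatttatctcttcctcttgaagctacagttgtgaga
Vegfa (higher, chr17:46343377-46343456, minus strand): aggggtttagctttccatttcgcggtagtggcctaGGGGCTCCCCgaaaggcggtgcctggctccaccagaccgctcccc
Kdr (lower, chr5:76139145-76139224, minus strand): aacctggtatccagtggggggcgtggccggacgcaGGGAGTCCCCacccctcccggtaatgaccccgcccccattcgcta
Flt1 (lower, chr5:147662869-147662948, minus strand): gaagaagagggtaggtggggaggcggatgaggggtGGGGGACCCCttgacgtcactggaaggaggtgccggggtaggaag
Arhgef15 (lower, chr11:68848368-68848447, minus strand): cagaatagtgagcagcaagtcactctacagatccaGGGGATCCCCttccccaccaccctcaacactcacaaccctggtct
The match in Nfkbia begins 29 bases before the transcript start and that in Cxcl1 61 bases before it, against 153 in Cd69, 112 in Vegfa and 243 in Icam1.

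Of the 14 tested genes of the BCL2 family, DESeq2 called Bcl2a1d. Bcl2a1d, which encodes an inhibitor of apoptosis of neutrophils, stood at 25.2, 57.7 and 64.3 in MI against 250.1, 220.4 and 137 in MI + MSC, a mean of 49.1 ± 20.9 against 202 ± 58.7 (SD, n = 3 each). DESeq2 called it with MI 13 (log2 1.86 ± 0.39, adjusted p = 0.00184) and without it (adjusted p = 0.00496). Its close copies Bcl2a1a and Bcl2a1b did not overlap between groups either, at 25.2, 68.2 and 55.1 in MI against 229, 285 and 92.9 in MI + MSC and at 25.2, 47.1 and 47.9 in MI against 147, 181 and 100.3 in MI + MSC. DESeq2 did not call them (adjusted p = 0.066 and 0.166, and 0.263 and 0.504 without MI 13). Reads of these near-identical genes can be split or lost in counting, so the share of each copy is uncertain. The median over the 14 genes was 0.67 with MI 13 and 0.17 without it. Bcl2l1, the gene of BCL-XL, was lower in all 3 treated libraries, at 168, 89.4 and 127 in MI against 70.3, 82.7 and 61.7 in MI + MSC (limma unadjusted p = 0.0415, and 0.135 without MI 13). Mcl1, the survival factor neutrophils depend on, stood at 1883, 4048 and 4162 in MI against 6654, 8749.6 and 4166 in MI + MSC, with MI + MSC 18 next to MI 20.

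Vegfa and Hilpda were both among the 10 higher genes of the naming rule. Vegfa encodes the main growth factor of blood vessels and stood at 101, 164 and 174 in MI against 433, 349 and 308 in MI + MSC, a mean of 146 ± 39.7 against 363 ± 63.6 (SD, n = 3 each). It was called by DESeq2 with MI 13 (log2 1.22 ± 0.32, adjusted p = 0.0221) and not without it (adjusted p = 0.105). Hilpda, which blocks lipid breakdown on lipid droplets and is induced by low oxygen, stood at 92.4, 112 and 317 in MI against 663, 983 and 432 in MI + MSC (DESeq2 adjusted p = 0.0152, and 0.108 without MI 13). The list of glycolysis and hypoxia genes had a median over 21 genes of 0.17 with MI 13 and 0.05 without it and 1 gene, Vegfa, past an unadjusted p of 0.05. Hk1, a hexokinase, and Pgam1, a phosphoglycerate mutase, were next in p with values on opposite sides, at -0.75 ± 0.34 and 0.71 ± 0.35 in limma with MI 13 and -0.43 ± 0.31 and 0.31 ± 0.25 without it.

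The other higher genes of the naming rule had varied roles. Rilpl2, which takes part in transport to cilia and lysosomes, stood at 58.8, 55.8 and 74.1 in MI against 170.3, 140.0 and 151 in MI + MSC (DESeq2 adjusted p = 0.0314, and 0.0741 without MI 13). Tgif1, a repressor of TGF-beta and retinoid signalling, stood at 168, 296 and 373 in MI against 931, 994 and 438 in MI + MSC (DESeq2 adjusted p = 0.0252, and 0.173 without MI 13, where it was not called). Rnu12, a small nuclear RNA of the minor spliceosome, stood at 8.40, 11.5 and 11.8 in MI against 50.02, 59.7 and 29.2 in MI + MSC, where the lowest value is 1 read (DESeq2 adjusted p = 0.0463, and 0.073 without MI 13). All 3 had treated libraries above every untreated one, and MI 13 or MI 19 held the lowest value of each. The noncoding A630001O12Rik stood at 8.40, 27.9 and 25.2 in MI against 155, 202 and 56.3 in MI + MSC and was called by DESeq2 with and without MI 13 (adjusted p = 0.0152 and 0.049). Dnase1l1, a nuclease related to DNase I, stood at 8.40, 19.2 and 20.1 in MI against 32.4, 61.99 and 109.8 in MI + MSC and missed the DESeq2 call (adjusted p = 0.0508, and 0.108 without MI 13). Both were at or near the depth limit in MI 13, with 1 read each. Cd69, an early activation marker of leukocytes, stood at 16.8, 76.9 and 66.4 in MI against 364, 236 and 107 in MI + MSC (DESeq2 adjusted p = 0.0215, and 0.0947 without MI 13). Siglecf, a sialic acid receptor of eosinophils that also marks a state of aged tissue neutrophils, stood at 75.6, 102 and 109 in MI against 414, 501 and 138 in MI + MSC (DESeq2 adjusted p = 0.0342, and 0.169 without MI 13). The fifth gene that DESeq2 called with and without MI 13, Gm37691, is a predicted transcript at 50.4, 20.2 and 39.1 in MI against 162, 209 and 50.8 in MI + MSC, the only higher gene besides Rilpl2 for which MI 13 was not the lowest MI library.

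Immediate early genes, which any stimulus and also the warm digestion of tissue can switch on within minutes, had a median over 26 tested members of 1.01 with MI 13 and 0.67 without it. Of these 24 were positive in both fits, 10 were higher and 0 lower at an unadjusted p under 0.05, and DESeq2 called none, beside 3.26% and 4.74% of all tested genes at that p. Maff, a small transcription factor of the stress response, stood at 126, 124 and 187 in MI against 567, 546 and 195 in MI + MSC. Dusp2, a phosphatase that ends kinase signals, stood at 16.8, 107 and 138 in MI against 436, 471 and 186 in MI + MSC, with 2 reads in MI 13. Zfp36, which destroys cytokine mRNA, stood at 832, 1405 and 1954 in MI against 3759.6, 4808 and 2083 in MI + MSC. In each of these MI + MSC 18 lay closest to MI 20 and the other treated libraries lay well above. The summed level of the list was 10741, 19324 and 23327 in MI against 37502, 54103 and 22273 in MI + MSC. The part of digestion in these values was not tested.

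**Figure D4:**
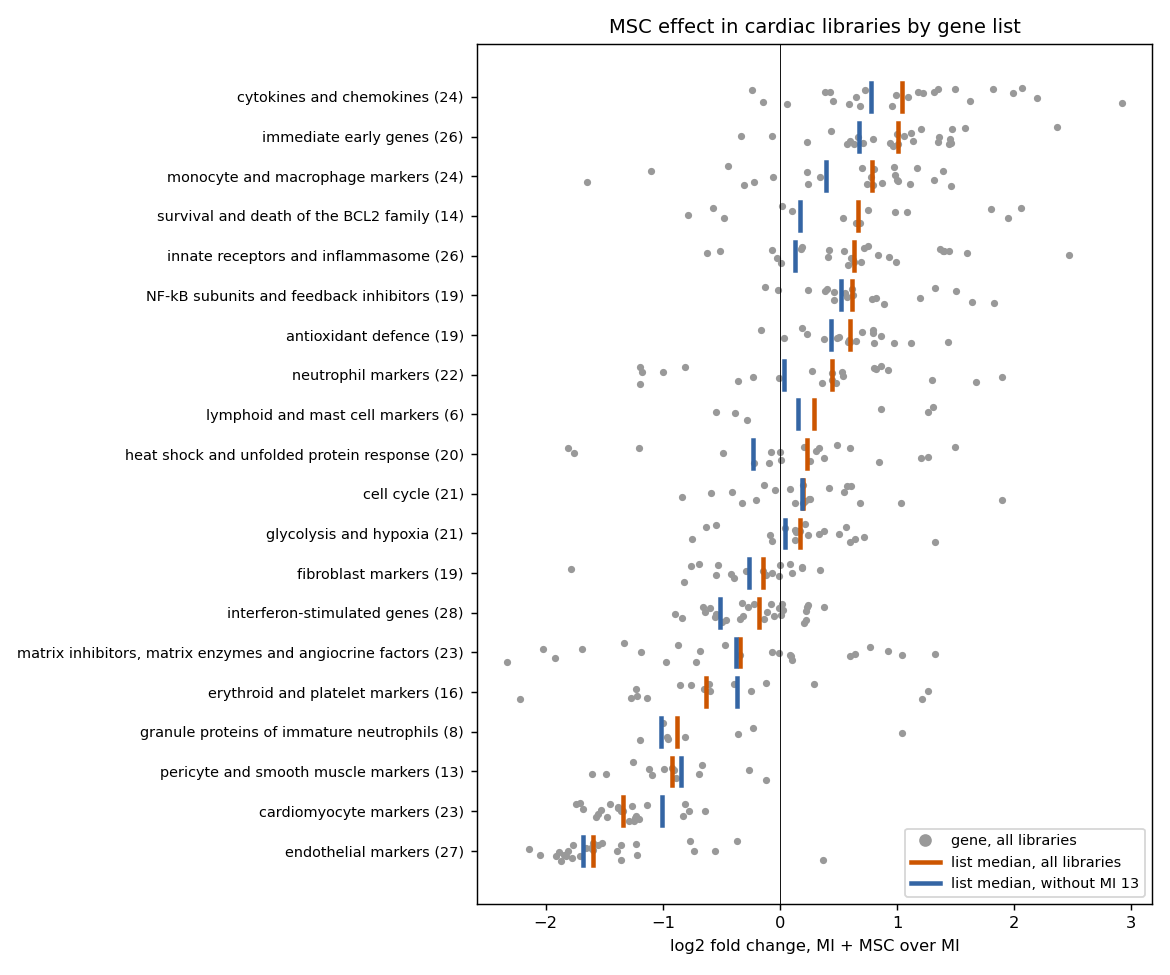
Limma log2 fold change of MI + MSC over MI (horizontal axis) for each tested gene of the 20 lists, with the list median from all libraries and from the fit without MI 13; the number of tested genes stands beside each name. Endothelial markers have the lowest median (-1.60 and -1.68) and cytokines and chemokines the highest (1.04 and 0.78).

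Antioxidant genes had a median over 19 tested members of 0.60 with MI 13 and 0.44 without it. Of these 18 were positive in both fits, 4 did not overlap and 5 passed an unadjusted p of 0.05. Sod1, the cytosolic superoxide dismutase, stood at 58.8, 48.1 and 60.2 in MI against 112, 78.1 and 86.8 in MI + MSC, and Txnrd1, which recharges thioredoxin, at 134, 202 and 277 in MI against 456, 305 and 292 in MI + MSC. Nfe2l2, the transcription factor NRF2 that drives such genes, stood at 294, 689 and 833 in MI against 1377, 1635 and 767 in MI + MSC. DESeq2 called none of them (adjusted p = 0.498, 0.51 and 0.311, and 0.81, 0.999 and 0.999 without MI 13).

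Interferon-stimulated genes depended on MI 13. The median over 28 genes was -0.18 with MI 13, with 9 positive and 19 negative values, and -0.52 without it, with 0 positive and 28 negative. No member was called by limma or DESeq2 in either fit. Gbp7, a guanylate-binding protein, was the member with the lowest p, at 92.4, 186 and 121 in MI against 85.8, 80.4 and 78.6 in MI + MSC (limma unadjusted p = 0.0392, and 0.00464 without MI 13). Usp18, which removes ISG15 from proteins, stood at 42.02, 52.9 and 37.1 in MI against 29.7, 27.6 and 27.1 in MI + MSC, and Oas2, a sensor of double-stranded RNA, at 134, 214 and 171 in MI against 135, 103 and 124 in MI + MSC. The summed level of the list was 2362, 6268 and 3996 in MI against 4394, 3184 and 3669 in MI + MSC, so that MI 13 was under every treated library and MI 19 above them all.

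Heat shock and unfolded protein response genes had medians of opposite sign, 0.23 with MI 13 and -0.23 without it, over 20 genes. The inducible chaperone genes Hspa1a and Hspa1b, near-identical neighbours on chromosome 17 whose reads cannot be fully separated, stood at 345, 635 and 1128 in MI against 369, 191 and 87.5 in MI + MSC for Hspa1a and at 420.2, 894 and 1392 in MI against 456, 227 and 115 in MI + MSC for Hspa1b. The groups of both overlapped, since MI + MSC 15 lay above MI 13, and DESeq2 called neither (adjusted p = 0.103 and 0.0943, and 0.0709 and 0.0538 without MI 13). For Hspa1a limma gave -1.76 ± 0.55 with MI 13 and -2.19 ± 0.57 without it. Hsph1, a cochaperone of the same heat shock programme, stood at 84.04, 236 and 446 in MI against 127, 84.9 and 65.1 in MI + MSC and was called lower by DESeq2 only without MI 13 (adjusted p = 0.00496, against 0.0985 with it). Atf4, the transcription factor of the integrated stress response, lay on the other side, at 202, 584 and 656 in MI against 1192, 1513 and 602 in MI + MSC (DESeq2 adjusted p = 0.347, and 0.999 without MI 13).

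The largest share of a list among the lower genes belonged to endothelium. The median over 27 tested endothelial markers was -1.60 with MI 13 and -1.68 without it, 26 of 27 were negative, 24 lay below every untreated library and 22 were lower at an unadjusted p under 0.05, beside 9.6% and 4.74% of all tested genes. DESeq2 called 13 of them lower with MI 13 and 10 without it. The summed level of the list was 7026, 7037 and 7645 in MI 13, 19 and 20 and 2070.4, 2815 and 3340.2 in MI + MSC 15, 17 and 18, a mean 2.64-fold lower in MI + MSC with MI 13 and 2.68-fold lower without it. MI 13 thus lay beside MI 19 and MI 20 for this list, unlike in the inflammatory lists. Blood libraries held 503 to 2572, the highest being Blood 21.

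Cdh5, the cadherin of endothelial junctions, stood at 513, 478 and 510.1 in MI against 119.6, 158 and 233 in MI + MSC, a mean of 500.2 ± 19.5 against 170.2 ± 57.4 (SD, n = 3 each). Its DESeq2 log2 fold change was -1.59 ± 0.35 (adjusted p = 0.0027, and 0.0291 without MI 13), and limma gave -1.60 ± 0.30 and -1.58 ± 0.33. Jam2, another junction protein, stood at 185, 201 and 212 in MI against 44.6, 52.8 and 71.9 in MI + MSC (DESeq2 adjusted p = 0.00732 with MI 13 and 0.0314 without it, the order kept below). Esam, the adhesion molecule of the same junctions, stood at 143, 83.6 and 116 in MI against 22.98, 36.7 and 29.2 in MI + MSC and was not called (DESeq2 adjusted p = 0.222 and 0.765). The groups of all 3 genes lay apart. In blood Esam was at 127 and 5.85 in Blood 21 and 22. Flt1 and Kdr, the receptors of the VEGF that Vegfa encodes, stood at 378, 317 and 347 in MI against 62.2, 110.2 and 129 in MI + MSC and at 244, 348 and 354 in MI against 64.2, 126 and 140.3 in MI + MSC. Both were called by DESeq2 with and without MI 13 (adjusted p = 0.00406 and 0.0427 for Flt1, 0.00927 and 0.0185 for Kdr), so the ligand and its receptors lay on opposite sides.

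Egfl7, a matrix protein secreted by endothelium, stood at 319, 182 and 230.1 in MI against 46.6, 41.3 and 90.2 in MI + MSC, against 0 and 0.65 in Blood. DESeq2 gave -2.02 ± 0.42 (adjusted p = 0.00183, and 0.0206 without MI 13). Ly6c1, a surface antigen of endothelium and some leukocytes, stood at 294, 321 and 313 in MI against 39.9, 101 and 78.6 in MI + MSC (DESeq2 adjusted p = 0.000832 and 0.00687). Fabp4, the fatty acid carrier of capillaries and macrophages, was even within groups, at 563, 554 and 596 in MI against 184, 280.1 and 283 in MI + MSC (DESeq2 adjusted p = 0.00478 and 0.0341). Ly6a, the stem cell antigen also found on vessels, stood at 261, 346 and 309 in MI against 126, 112 and 134 in MI + MSC (DESeq2 adjusted p = 0.00235 and 0.00583). None of these had overlapping groups. Podxl, a sialomucin of the luminal surface, stood at 622, 476 and 483 in MI against 75.7, 179 and 201 in MI + MSC and was called with MI 13 but not without it (DESeq2 adjusted p = 0.038 and 0.28). Aqp1, the water channel of capillaries and red cells, stood at 277, 291 and 333 in MI against 62.9, 80.4 and 94.2 in MI + MSC and was not called (DESeq2 adjusted p = 0.203 and 0.999). The exceptions among the endothelial markers were Rgcc, at 50.4, 113 and 134 in MI against 116, 152 and 95.6 in MI + MSC, Cd36, at 647, 898 and 838 in MI against 549.5, 289 and 658 in MI + MSC, and Vwf, at 75.6, 81.7 and 46.3 in MI against 30.4, 64.3 and 44.1 in MI + MSC, whose groups overlapped.

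Several of the lowest p values belonged to genes outside the endothelial list. Nherf2, a scaffold protein of membrane transporters, stood at 227, 145 and 181 in MI against 26.4, 41.3 and 56.9 in MI + MSC and had the lowest unadjusted p in limma (4.84e-05, log2 -2.14 ± 0.34). DESeq2 called it with and without MI 13 (adjusted p = 0.000321 and 0.00496). Mcf2l, a guanine nucleotide exchange factor, stood at 168, 146 and 138 in MI against 25.01, 43.6 and 50.8 in MI + MSC (DESeq2 adjusted p = 0.000832 and 0.00583). In both the treated libraries lay far below the lowest untreated one. Adgrf5, an adhesion receptor of lung and vessel cells, stood at 429, 640.2 and 576 in MI against 86.5, 168 and 213 in MI + MSC (DESeq2 adjusted p = 0.00111 and 0.00496). Dab2ip, a Ras GTPase activating protein, stood at 176, 153 and 132 in MI against 47.3, 64.3 and 55.6 in MI + MSC (DESeq2 adjusted p = 0.00906 and 0.0439), and stood at 98.9 and 53.3 in Blood. Of the 58 lower genes 57 had a lower mean in Blood than in cardiac MI, the exception being Lyve1, and 11 had 3 reads or fewer in each of the 4 blood libraries. The same shares over all tested genes were not counted, so these counts cannot be read as particular to the lower genes.

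Of 23 tested matrix inhibitors, matrix enzymes and angiocrine factors, 9 had a positive and 14 a negative value, and DESeq2 called 4 lower and 1 (Vegfa) higher. Without MI 13 it called 3 lower and 0 higher. Timp3 and Timp4 encode inhibitors of matrix metalloproteinases and stood at 546, 561 and 677 in MI against 80.4, 225 and 203 in MI + MSC and at 101, 112 and 157 in MI against 14.2, 45.9 and 16.9 in MI + MSC. DESeq2 called both with and without MI 13 (adjusted p = 0.00589 and 0.0341 for Timp3, 0.00235 and 0.00583 for Timp4). Cxcl12, the chemokine that retains neutrophils and progenitors through CXCR4, stood at 815, 695 and 777 in MI against 116, 214 and 259.6 in MI + MSC, a mean of 762 ± 61.4 against 196 ± 73.6 (SD, n = 3 each), with a DESeq2 log2 fold change of -2.00 ± 0.37 (adjusted p = 0.000321, and 0.00583 without MI 13). Cxcl12 was at 0 and 2.60 in Blood, with 3.15 and 6.39 in Blood + MSC, and Timp4 had at most 1 read in each of these 4 libraries. Mmp8 and Mmp9, the metalloproteinases of neutrophil granules, overlapped between groups, at 92.4, 335 and 279 in MI against 347, 232 and 106 in MI + MSC and at 134, 402 and 496 in MI against 804, 866 and 266 in MI + MSC. The median over the list was -0.34 with MI 13 (23 tested) and -0.38 without it (22 tested).

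**Figure D5:**
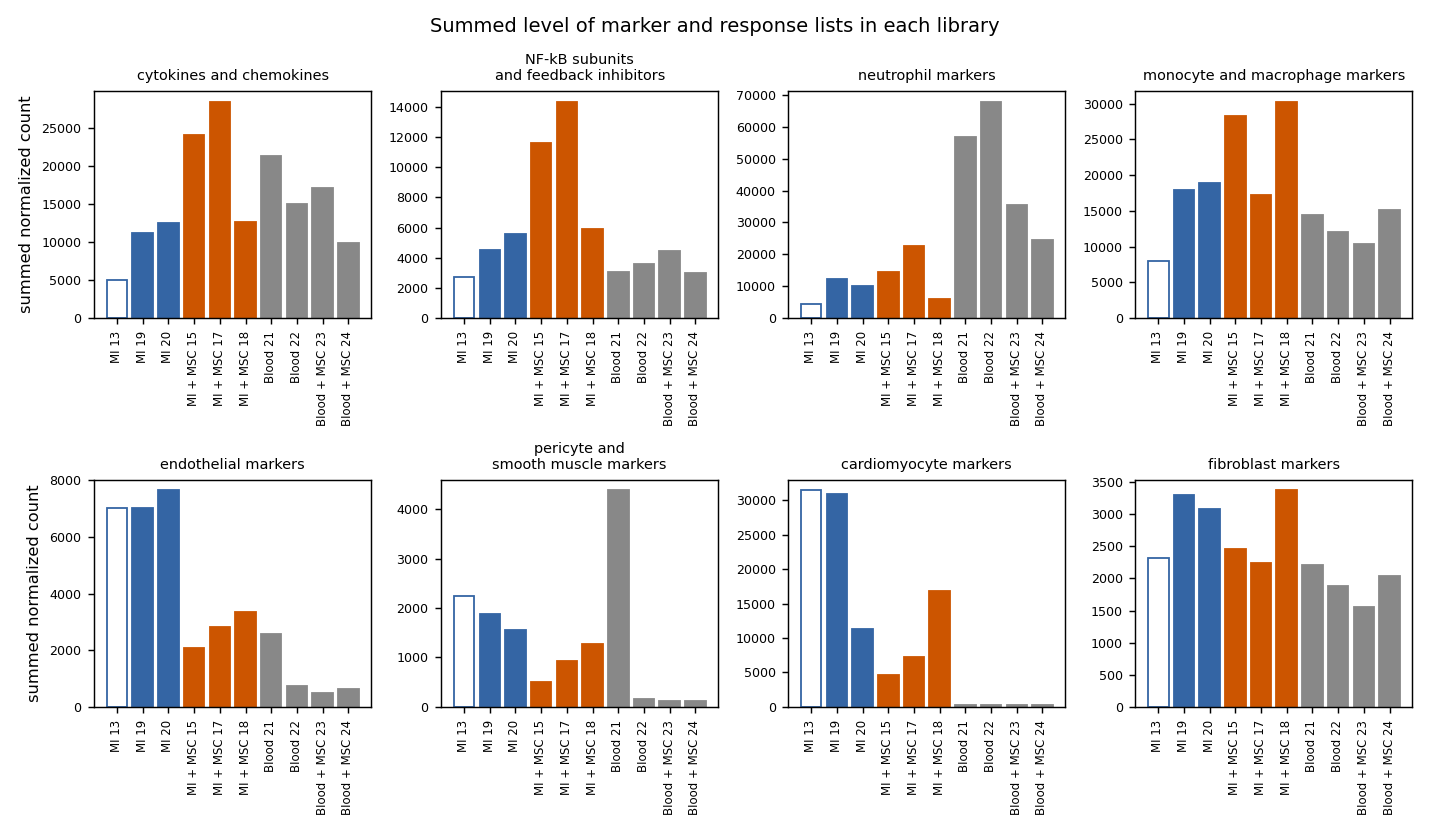
Summed normalized counts of 8 lists in each of the 10 libraries, with MI 13 as an open bar and the blood libraries in grey; each panel has its own scale from 0. The 3 MI libraries lie between 7026 and 7645 for endothelial markers and the 3 MI + MSC libraries between 2070 and 3340, while cytokines and chemokines are highest in MI + MSC 15 and 17 with MI + MSC 18 next to MI 20.

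RNA of markers of other structural cells of the heart differed less evenly between groups. The median over pericyte and smooth muscle markers was -0.92 with MI 13 (13 tested) and -0.85 without it (12 tested). Their sums were 2252, 1871 and 1559.5 in MI against 504, 929.8 and 1269.8 in MI + MSC. Among the members with the lowest p, Kcnj8 and Abcc9, the subunits of the potassium channel of mural cells, stood at 25.2, 36.5 and 25.2 in MI against 4.73, 6.89 and 19.7 in MI + MSC and at 101, 97.1 and 45.3 in MI against 14.2, 48.2 and 41.4 in MI + MSC. Rgs5, a pericyte marker, stood at 840.4, 679.6 and 647 in MI against 134, 255 and 376 in MI + MSC and was called by DESeq2 with MI 13 (adjusted p = 0.0215) and not without it (adjusted p = 0.191). All 23 tested cardiomyocyte markers were negative with MI 13, with a median of -1.34, and 16 passed an unadjusted p of 0.05. Without MI 13 all 22 tested were negative, with a median of -1.01. Of the 23 only Myh7 and Nppb did not overlap between groups, and for the other 21 MI + MSC 18 exceeded MI 20. Myh7, the slow myosin heavy chain, stood at 118, 111 and 94.2 in MI against 21.6, 39.03 and 38.6 in MI + MSC (DESeq2 adjusted p = 0.0108 and 0.0439), while Myh6, the fast one, overlapped at 2858, 3901 and 1391 in MI against 497, 402 and 2211 in MI + MSC. Fibroblast markers had a median of -0.14 with MI 13 and -0.26 without it over 19 genes, with sums of 2311, 3302 and 3081 in MI against 2459.7, 2236 and 3370.0 in MI + MSC. Dcn, a proteoglycan of fibroblasts, was lower in all 3 treated libraries, at 159.7, 257 and 212 in MI against 93.3, 117 and 140.3 in MI + MSC, while Dpt and Col6a1, a dermatopontin and a collagen gene, were closer to MI in MI + MSC 18, at 67.2, 67.3 and 65.9 in MI against 11.5, 9.18 and 50.8 in MI + MSC and at 67.2, 67.3 and 55.6 in MI against 22.3, 36.7 and 58.98 in MI + MSC. The part of endothelial, mural and muscle RNA carried over from the digested tissue in the lower genes was not tested.

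Leukocyte markers did not move as one. Over 22 neutrophil markers the median was 0.44 with MI 13 and 0.04 without it. Ly6g was lower in all 3 treated libraries (limma unadjusted p = 0.0273, log2 -1.18 ± 0.47, and 0.0347 and -1.30 ± 0.53 without MI 13), and DESeq2 did not call it (adjusted p = 0.27, and 0.444 without MI 13). Its values in MI 13 and the treated libraries rested on few reads. G0s2, an inhibitor of lipid breakdown that is high in neutrophils, stood at 92.4, 208 and 283 in MI against 807, 1318 and 272 in MI + MSC, overlapping at MI 20 and MI + MSC 18. Over 8 tested granule protein genes of immature neutrophils the median was -0.88 with MI 13 and -1.02 without it, 7 of 8 being negative and none passing an unadjusted p of 0.05. Prtn3, a serine protease of azurophil granules, stood at 8.40, 8.65 and 4.12 in MI against 3.38, 2.30 and 2.03 in MI + MSC, and Chil3, a chitinase-like secretory protein, at 294, 779.6 and 527 in MI against 205, 519 and 152 in MI + MSC. For Prtn3 this was 1 read in MI 13, 1 read in MI + MSC 17 and 3 reads in MI + MSC 18. Cebpe, the transcription factor of secondary granules, was the positive member, at 0, 9.61 and 9.78 in MI against 12.8, 13.8 and 8.14 in MI + MSC with 0 reads in MI 13.

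Over 24 monocyte and macrophage markers the median was 0.79 with MI 13 and 0.39 without it. Gpnmb and Apoe, genes of lipid-laden macrophages, lay above every untreated library, at 176, 428 and 501 in MI against 1382, 509.7 and 1134 in MI + MSC and at 714, 1713 and 1929 in MI against 4013, 2362 and 4479.8 in MI + MSC (DESeq2 adjusted p = 0.115 and 0.133, and 0.57 and 0.669 without MI 13). Lyve1, a hyaluronan receptor of resident macrophages and lymphatics, was lower, at 16.8, 79.8 and 107 in MI against 9.46, 11.5 and 33.2 in MI + MSC. In blood Lyve1 stood at 276 and 336 in Blood 21 and 22 and at 268 and 190 in Blood + MSC 23 and 24. Every blood library thus lay above every cardiac one, so Lyve1 RNA was not particular to the heart. DESeq2 called Lyve1 with MI 13 (adjusted p = 0.0304) and without it (adjusted p = 0.00496), and limma moved from -1.65 ± 0.60 to -2.42 ± 0.45 where MI 13 held 2 reads. Cd163, the haemoglobin scavenger receptor of the same macrophages, stood at 25.2, 124 and 116 in MI against 17.6, 41.3 and 46.1 in MI + MSC and was called by DESeq2 only without MI 13 (adjusted p = 0.0318). Over 6 lymphoid and mast cell markers the median was 0.29, over 16 erythroid and platelet markers -0.63, and over 21 cell cycle genes 0.19. Without MI 13 these medians were 0.15, -0.37 and 0.19, the last over 19 genes. The sum of the erythroid and platelet list lay on the other side from its median, at 815, 914 and 753 in MI against 1828, 1010.2 and 1333 in MI + MSC, a mean 1.68-fold higher in MI + MSC with MI 13 and 1.67-fold without it. Its platelet chemokine gene Pf4 was at 252, 455 and 516 in MI against 1233, 682 and 988 in MI + MSC. Ighm, the heavy chain of immunoglobulin M, stood at 16.8, 83.6 and 50.4 in MI against 109, 112 and 90.8 in MI + MSC, and Hbb-bt, a haemoglobin chain, at 33.6, 9.61 and 2.57 in MI against 0, 0 and 2.71 in MI + MSC. Hbb-bt had few reads in each cardiac library. Pcna, the sliding clamp of DNA replication, stood at 118, 295 and 308 in MI against 494, 457 and 410.1 in MI + MSC, above every untreated library, and was not called (DESeq2 adjusted p = 0.265, and 0.688 without MI 13).

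Whether the MSC effect in the heart differed from that in blood was tested as an interaction. Limma called 0 of 11549 genes (0.0%), with a lowest adjusted p of 0.627 and 838 genes at an unadjusted p under 0.05, edgeR called 0, and DESeq2 called 20, or 10 without MI 13. DESeq2's filter on low counts left an interaction adjusted p to 801 genes, so the 20 are 2.5% of those. Of the 21 higher genes 8, of the 58 lower genes 1 and of the 78 genes named by the rules 17 had such a p, and among these Pf4 was called. Most of the genes above were therefore not tested in that step. With the DESeq2 p-values adjusted over all 11548 genes that had one, a setting added after seeing the data, 1 gene was called (0.00866%), Nherf2 (log2 difference -3.27 ± 0.69, adjusted p = 0.0275). Without Blood 22, which leaves Blood 21 alone in its group with the spread of the other groups assumed for it, limma called 1086. Of the 21 higher genes 14 had a lower mean in Blood than in cardiac MI, a share not counted over all tested genes. Il1a was at 0 and 2.60 in Blood 21 and 22 and at 7.09 and 8.92 in Blood + MSC 23 and 24, Cxcl1 at 0 and 1.30 and 11.8 and 7.23, and Bcl2a1d at 7.07 and 8.45 and 33.1 and 27.6. Blood 21 held 2572 summed counts of endothelial and 4381 of pericyte and smooth muscle markers, against 503 to 725 and 119 to 154 in the other blood libraries, so the spread of blood values for these genes rests on it.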

How the data were processed

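Total RNA was sequenced from Ly6G-selected cells of 10 mouse libraries, and the 3 MI and 3 MI + MSC cardiac libraries were compared. According to the study's methods and the submitters' processing notes, the authors trimmed reads with Trimmomatic, removed duplicates with Picard, mapped to GRCm39 with STAR, counted by strand with featureCounts and left mitochondrial reads out. The signal deposited by the authors is the count of a gene divided by the DESeq2 size factor of the library. A second deposited table, named as raw counts, held the same values in all 281850 cells, so raw counts were recovered by dividing by the value of 1 read (tolerance 0.01 reads). Of 28185 genes 279 were not in the gene annotation used here, and 0 columns were unmapped.

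The test was limma 3.58.1 (R 4.3.3, eBayes with trend) on log2(value + 2), with 1 mean for each of the 4 groups, over genes with a mean of at least 10. Fold changes on this scale understate the change of low genes. Calls required a Benjamini-Hochberg adjusted p under 0.05 and a log2 fold change of at least 0.5. Recovered reads were tested with DESeq2 1.42.0 and edgeR 4.0.16. Scripts were tested on simulated data. Depth ran from 148594 to 8602711 reads. The study gives 3 mice per group for the sequencing, while the series holds 2 libraries in each blood group. The labels do not state that replicates came from separate animals, so p-values measure the spread between these libraries. Promoters were read from GRCm39 at the start of the Ensembl canonical transcript.

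Named genes were the 10 higher and 10 lower genes of lowest p with non-overlapping groups, a constant sign with each library left out and at least 10 reads in 3 libraries, every edgeR call (0), the 3 genes of lowest p in each of 20 lists, 17 genes the study names, and Ly6g. Il1b, Ccl2, Cxcl16, Cxcl3, Lif, Tlr2, Tlr4, Nod1, Tnfaip3, Nfkb1, Rela, Mcl1, Bcl2l1, Hsph1, S100a8, Mmp8, Mmp9, Cd163, Rgcc, Cd36, Vwf, Icam1, Kdr, Arhgef15, Ly6c1 and Gm37691 were named after their values were seen. The comparison and the lists were chosen with earlier results of these data known. Alternatives were other pseudocounts, filters, scalings, weights, tools and left-out libraries.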

Additional observations from a re-analysis of the deposited data

Results flagged for a closer look

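Pf4, the gene of a platelet chemokine that macrophages also express, differed in its MSC effect between heart and blood by an interaction test. DESeq2 gave a difference of 3.37 on the log2 scale (adjusted p = 0.00743), whereas limma gave 2.87 with an adjusted p of 0.630 and did not call it. The DESeq2 call rested on a filter that left 801 genes, and with p adjusted over every gene the value was 0.0803. The level of Pf4 was 252, 455 and 516 normalized counts in MI 13, 19 and 20 and 1233, 682 and 988 in MI + MSC 15, 17 and 18, so the treated libraries all lay above the untreated ones. In blood Pf4 stood at 3038 in Blood 21 and 552 in Blood 22, and at 457 and 396 in Blood + MSC 23 and 24. Blood 21 held more than every other blood library, and its part in the difference was not tested.

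Nherf2, the scaffold protein gene with the lowest limma p in the heart, differed in its MSC effect between heart and blood when DESeq2 p-values were adjusted over every gene, by -3.27 on the log2 scale (adjusted p = 0.0275). DESeq2's own filter gave it no adjusted p, and limma gave -3.33 with an adjusted p of 0.627. Nherf2 was lower in the treated cardiac libraries and stood at 14.1 and 21.4 normalized counts in Blood 21 and 22 against 35.7 and 50.8 in Blood + MSC 23 and 24. Blood 21 held 2 reads of it.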

How the results depend on the processing

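No limma setting on the log2 values with equal weights called a gene for the cardiac comparison, and the counts moved with weights and tools. Sample quality weights gave 325 higher and 776 lower, limma-voom with weights 39 and 222, DESeq2 over all libraries 21 and 58, DESeq2 on the 6 cardiac libraries 48 and 85, and edgeR on those 6 libraries 0 and 14. DESeq2 gave 5 higher and 37 lower without MI 13, 1 and 3 without MI 19, 21 and 26 without MI 20, 2 and 6 without MI + MSC 15, 4 and 29 without MI + MSC 17, and 79 and 109 without MI + MSC 18; all but the first of these were chosen after seeing the data. With p adjusted over every gene, also chosen after seeing the data, DESeq2 gave 20 and 52. For the difference between heart and blood DESeq2 called 20 genes, 10 without MI 13 and 1 with p adjusted over every gene, and limma called 1086 without Blood 22 and 0 otherwise, a range of 0 to 1086. Genes with all treated libraries above the untreated ones numbered 956 to 2038 with 1 library left out, and those below 1348 to 1963. They numbered 512 above with scaling to total reads, and below they numbered 1928 at a minimum mean of 1 and 468 at a minimum mean of 50. The cause of these shifts was not tested, except that leaving out a library or filtering genes changes the chance of non-overlap or the number tested. Scaling to total reads also moved the median log2 fold change of all genes from -0.01 to -0.14. Of 2076 alternative values of the 78 named genes 0 changed sign, but 20 of these genes were chosen for a constant sign and most others for a low p, so this says little about stability. Without MI 13 the median of the heat shock list turned from 0.23 to -0.23, and the medians of innate receptors (0.63 to 0.13), the BCL2 family (0.67 to 0.17), neutrophil markers (0.44 to 0.04), glycolysis and hypoxia (0.17 to 0.05), monocyte and macrophage markers (0.79 to 0.39), lymphoid and mast cell markers (0.29 to 0.15), interferon-stimulated genes (-0.18 to -0.52), fibroblast markers (-0.14 to -0.26) and erythroid and platelet markers (-0.63 to -0.37) moved by over 1.5 times. Depth limits MI 13 most, where 3136 tested genes had 3 reads or fewer, and its reads also differed in make-up, as given above. No paired analysis was possible because the groups share no replicate numbers. In the study's methods mice gave blood before their hearts were removed, so heart and blood libraries may share mice. The labels do not link them, and the interaction test treated them as independent.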
